A study of Mus musculus with 8 samples.

Results

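The subject is the list of m6A antibody peaks that the authors deposited for Mettl14-knockout mouse liver under endoplasmic reticulum (ER) stress. Every row of that list was taken, which gave 12290 peaks in 5861 genes, out of 17876 peaks in the knockout and wild-type lists together. The knockout mice are labelled METTL14Alb (METTL14 LKO in the series' design text) and the wild-type mice METTL14f/f, a floxed Mettl14 gene. Both genotypes were injected with tunicamycin at 2 mg/kg and their livers were taken at 24 h, so no unstressed liver was measured. Polyadenylated liver RNA was fragmented by sonication and sequenced before (input) and after precipitation with an antibody to m6A (IP), with 2 libraries for each genotype and library type. Neither the driver of the deletion nor the ages of the mice are spelled out in the labels. Whether both libraries of a group stem from different animals is not stated either. Whole liver also holds cells other than hepatocytes. A peak in the list is a stretch of a transcript with more IP than input RNA. Its enrichment is the authors' own IP over input value for that peak. The list gives 1 value per peak for the genotype and none per library, so no spread between libraries can be set beside any value below and no test over samples was made.

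N6-methyladenosine (m6A) is the most common internal modification of mRNA. A complex of METTL3, which holds the catalytic site, and METTL14, which helps to bind the RNA, places it on nascent transcripts, mostly near stop codons and in long internal exons. Other enzymes place methyl groups at N6 of adenosine too: METTL16 acts on a few structured RNAs, METTL5 and ZCCHC4 on ribosomal RNA, and PCIF1 on an adenosine next to the mRNA cap that already carries a 2'-O-methyl group. Antibodies to m6A also bind that cap-adjacent form, m6Am. Tunicamycin blocks N-linked glycosylation, so that unfolded proteins collect in the ER and the unfolded protein response (UPR) is set off.

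Since 30.5% of the peaks with a usable position lay at the 5' end of a gene, the sequences there are shown first. The 8 strongest peaks were taken that began from 5 bases before to 10 bases after a start listed by RefSeq (build GRCm38.p6, which is mm10), in genes at or above the median mean count of peak genes. Each line gives 30 bases, 5' to 3' on the strand of the gene, with 10 bases before the start and the start as the 11th base. Capitals mark the bases that lay inside a block of the deposited peak, up to its listed end.
Cyp3a13, a drug-metabolising cytochrome P450 (chr5:137921600-137921629, minus strand, enrichment 243.8): ttcctgagtcACAAACAGCTGGGCAGGGAA
Pcyt1a, an enzyme of phosphatidylcholine synthesis (chr16:32430911-32430940, plus strand, enrichment 177.8): tccggtccgcaGTCCGGTCAGATGTTTCCC
Ube2h, a ubiquitin-conjugating enzyme (chr6:30304520-30304549, minus strand, enrichment 176.9): tgacatcacgGCGCCTAGAGCGAGGCTAGG
Crot, the peroxisomal carnitine octanoyltransferase (chr5:8997127-8997156, minus strand, enrichment 175.1): aggacagcccAGAGCCTGCAGGCCGACGCA
Cab39, a partner of the kinase LKB1 (chr1:85793431-85793460, plus strand, enrichment 156.7): tgcgcacgtcaaagccgGGCTCAGGCCGGA
Arf3, a small GTPase of the Golgi (chr15:98763099-98763128, minus strand, enrichment 138.8): gggcaggaggGAGCCGGGGAGCGGGCCAGC
Ogdh, a subunit of the 2-oxoglutarate dehydrogenase complex (chr11:6291587-6291616, plus strand, enrichment 133.1): ctctggggccgGGCTACGCGTTGACGCCAC
Dpyd, which degrades pyrimidines (chr3:118562170-118562199, plus strand, enrichment 132.5): tcagtgcacCAGTGCTGGGGCAAGCTGAGG
The listed start was an A in Cyp3a13, Pcyt1a, Crot, Cab39 and Dpyd, and a G in Ube2h, Arf3 and Ogdh. Over the whole list 643 peaks began from 5 bases before to 25 after a listed start, with a median enrichment of 18.3. An A stood at 35.3% of those 643 starts, at 28.5% of the 9465 listed starts of all genes at a mean count of 100 or more, and at 26.01% of the 2453 starts of genes whose peaks all lay elsewhere. It stood at 34.4% of all 32851 listed starts, expressed or not. The letters CA across the start, which are common at initiation sites, were found at 23.3%, 18.9% and 17.4% of the first 3 sets and at 19.2% of all listed starts. GGAC, the core of the usual m6A motif, was found in the first 50 bases of 24.1% of the 643 starts, of 20.5% of the 9465 and of 18.9% of all listed starts. GTCC, the same letters on the other strand, was found in 19.3%, 20.9% and 17.4%. A wider set held 2909 starts of genes with a peak beginning from 50 bases before to 200 after a listed start. In that set an A stood at 29.5% of starts, CA at 20.3%, GGAC in 21.9% and GTCC in 20.3%. These values lay nearer to those of the 9465 starts than to those of the 643. Such matches describe letters and mark no methylated base, and the listed start need not be the one used in liver.

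The 12290 peaks were mostly short and well above input. Enrichment ran from 1.10 to 2103 with a median of 13.1 and quartiles of 6.83 and 25.6. Of all peaks 12142 (98.8%) reached at least 2, 7461 (60.7%) at least 10, 1211 (9.85%) at least 50 and 277 (2.25%) at least 100. The p-value that the authors list per peak had a median of 1.88e-09, and 3 peaks had 0.05 or more, the largest 0.0713. Peaks covered 49 to 1792 bases of transcript with a median of 99, and 4533 (36.9%) covered 49 or 50 bases. A peak can consist of several blocks joined across introns: 8707 had 1 block and 3583 (29.2%), in 3080 genes, had several, up to 8. In all 3583 the listed blocks ran 1 base past the listed end. The median enrichment was 12.2 for peaks of 1 block and 16.1 for peaks of several. The wild-type list held 5586 peaks in 2988 genes. Of the knockout peaks 3361 (27.3%) shared at least 1 base of a block with a wild-type peak, as did 4065 (72.8%) of the wild-type peaks with a knockout peak. Sequencing depth of the IP libraries is unknown here, so the lengths of the lists were not compared as an effect of genotype.

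The gene carrying the deletion had no knockout peak, and its own level did not check the labels clearly. Mettl14 had a mean normalized count of 76.5 over the 4 input libraries, and the log2 change in the authors' deposited table was -0.50 ± 0.41 (SE, 2 libraries per genotype, adjusted p = 0.342 from DESeq2). That table does not name the numerator, and it was read as knockout over wild type: among 347 genes at a mean count of 100 or more whose log2 value exceeded 2, 156 had a peak in the knockout list alone and 0 in the wild-type list alone, while among 403 genes below -2 the numbers were 30 and 46. At any level and log2 value, 2731 genes were in both lists, of 5861 in the knockout and 2988 in the wild-type list. Over all genes, those in the knockout list alone were thus the more common kind, but among the genes below -2 they were not. The reading of the numerator rests on these counts. The tissue label was checked on marker genes. Of 6 hepatocyte markers all were abundant, from a mean count of 8404 for Hnf4a to 349244 for Alb. Markers of cholangiocytes (85 to 1749 over 6 genes), stellate cells (122.9 to 2630 over 6), macrophages (144 to 1266 over 6) and endothelial cells (199 to 575 over 6) were present at lower counts. The lymphocyte markers Cd3e, Cd79a and Nkg7 were near 0 (3.79, 4.37 and 8.24) and Ptprc stood at 141.5. In such bulk RNA, fewer cells of a type and less RNA per cell cannot be told apart.

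Peaks were found chiefly in abundant mRNAs. Of 16133 genes in the authors' expression data 36.3% carried at least 1 knockout peak, and all 5861 peak genes were among them. The genes were divided into 5 equal abundance classes by mean normalized count, from class 1 (lowest) to class 5 (highest). In class 1 (mean count up to 9.41) 0 of 3226 genes carried a peak. The numbers were 76 of 3227 (2.36%) in class 2 (up to 80.01), 901 of 3226 (27.9%) in class 3 (up to 260.8), 2095 of 3227 (64.9%) in class 4 (up to 675.2) and 2789 of 3227 (86.4%) in class 5. Above a mean count of 10000 the share was 95.03%, 172 of 181 genes. The median mean count was 636.7 for genes with a peak and 39.1 for genes without. The least abundant gene with a peak was the linker histone gene Hist1h1d, at a mean count of 18.4. Peaks of abundant mRNAs were more numerous per gene and weaker each. The number of peaks per peak gene was 1.36, 1.51, 1.94 and 2.43 from class 2 to class 5, and the median enrichment was 28.4, 22.2, 15.9 and 9.82. Above a mean count of 10000 there were 3.33 peaks per peak gene with a median enrichment of 4.10. Taking only the strongest peak of each gene narrowed the gap: the medians were 33.6, 25.97, 21.7 and 19.0 from class 2 to class 5. Across the 5861 peak genes Spearman's rho was -0.15 between mean count and strongest enrichment and 0.29 between mean count and number of peaks. Genes are not independent replicates, and the knockout input libraries enter both the mean count and the peaks of a gene. Read depth per gene bears on which peaks can be called, and its part in these shares was not tested.

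**Figure D1:**
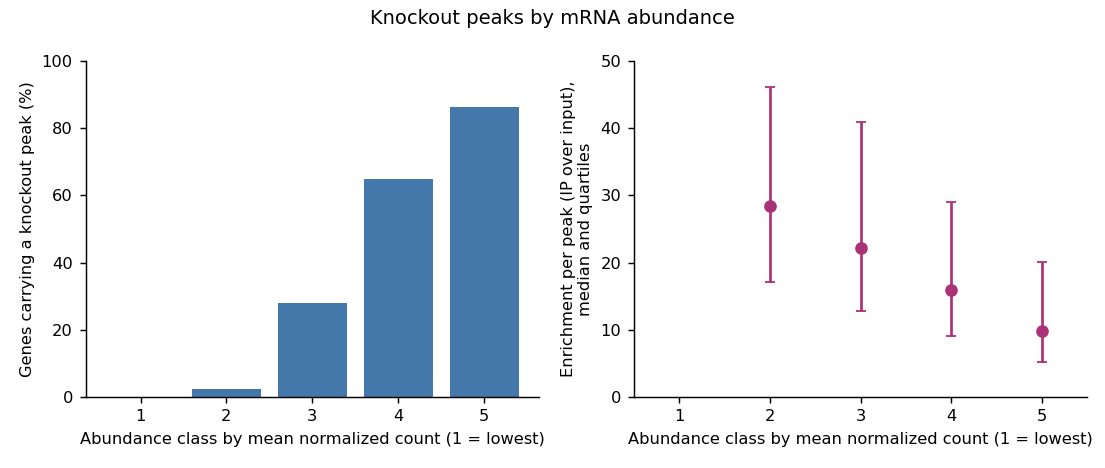
Left, share of genes (%) carrying at least 1 knockout peak in each of 5 equal abundance classes of the 16133 genes by mean normalized count, from 0 in class 1 to 86.4% in class 5. Right, enrichment (IP over input) of the knockout peaks in each class, with points for medians and bars for the lower and upper quartiles. Class 1 held no peak, and the median was 28.4 in class 2 and 9.82 in class 5.

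A few very abundant liver mRNAs stood outside this relation. Of the 181 genes above a mean count of 10000, 9 had no knockout peak: Saa1 and Saa2 (serum amyloid A, acute phase apolipoproteins, mean counts 44506 and 31344), Mup3, Mup7, Mup15 and Gm2083 (major urinary protein genes, 14406 to 24721), Ttr (transthyretin, a carrier of thyroid hormone and retinol, 19728), Aldh2 (mitochondrial aldehyde dehydrogenase, 16641) and Cyp8b1 (12713), which makes the precursor of cholic acid. Just under that limit came Ugt1a5, Ugt1a2, Ugt1a7c and Ugt1a10, glucuronosyltransferases that share exons, then the ribosomal protein gene Rps3 (9190), the elongation factor gene Eef1b2 (7567), the triglyceride synthesis gene Dgat2 (7376) and Ncl (7297), which encodes nucleolin. Reads from the near-identical copies of the Saa, Mup and Ugt1a genes may have been divided or dropped in counting or in peak calling, so that their missing peaks are uncertain. Cyp8b1 spans 1950 bases of the genome. Within each class that held peaks, genes with a peak had the smaller median genomic span: 19575 against 22506 bases in class 5, 24052 against 30740 in class 4, 18997 against 26025 in class 3 and 17552 against 21017 in class 2.

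Most peak genes had few peaks, and a small set had many. Of 5861 genes 2569 (43.8%) had 1 peak, 1632 had 2, 889 had 3, 432 had 4 and 339 had 5 or more. Those 339 genes held 2062 peaks (16.8% of all). Among the 3292 genes with at least 2 peaks the strongest was a median of 2.5 times the weakest, and in 670 of them (20.4%) it was at least 5 times the weakest.

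**Figure D2:**
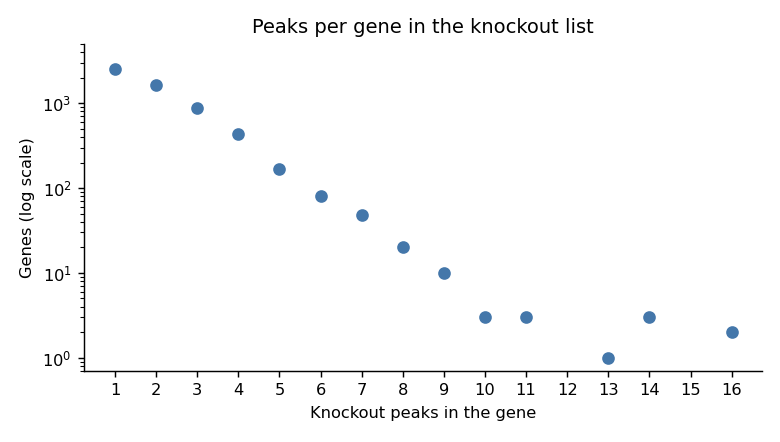
Number of genes (log scale) by the number of knockout peaks they carried. Each point is a number of genes, from 2569 genes with 1 peak to 2 genes with 16, and numbers of peaks found in no gene have no point.

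The genes with most peaks, among those at or above the median mean count of peak genes, encode large proteins. Apob, the structural protein of very low density lipoprotein, had 16. Its peak at the gene start (chr12:7977678-7979278, 3 blocks) had an enrichment of 69.0, and the other 15, all at least 28478 bases from the start, had 1.97 to 8.38. Thus 1 peak of Apob stood far above the rest. Kmt2d, a histone H3 lysine 4 methyltransferase, also had 16, none closer than 7657 bases to its listed start, with enrichments of 4.07 to 25.7. Nsd1, a histone H3 lysine 36 methyltransferase, had 14, with the strongest (150.6 and 106.4) next to each other and the others at 5.58 to 25.4. Huwe1, a ubiquitin ligase, had 14 peaks of 2.76 to 17.5, and Plec, the cytoskeletal linker plectin, 14 of 1.84 to 12.2. Col18a1, whose product is cut to endostatin, had 13 peaks of 1.70 to 5.86. Son (a splicing cofactor), Myo18a (an unconventional myosin) and Sec16a, which organises the sites where cargo leaves the ER, had 11 each. Nipbl, the cohesin loader, had 10, and its weakest peak (19.1) exceeded the strongest of Huwe1, Plec, Son, Myo18a, Sec16a and Col18a1. Nipbl was also less abundant (mean count 757.5) than these genes, which ran from 2512 for Myo18a to 21766 for Col18a1. Median enrichment fell with abundance over the whole list.

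The 10 strongest peaks by the same limit on mean count covered 49 to 247 bases, those of Cxadr and Cyp3a13 in 2 blocks. Susd6 had 1 peak of 2103 that began 51 bases after its start (chr12:80790583-80790730), beside others of 9 to 22.3. Glud1, the mitochondrial glutamate dehydrogenase, had 875.7 in a peak of 49 bases that began 50 bases after its start, beside 10.6 in its other peak. For Tef, a clock-controlled transcription factor, the values were 343.2 at 150 bases after a listed start and 10.9 and 12.9 elsewhere. Txnrd1, the cytosolic thioredoxin reductase of the NRF2 response, had 299.6 and 108.8. Psmd2, a proteasome base subunit, had 264.3 at 50 bases after its start, then 165.2 and 16.9. Cp, the copper-carrying plasma protein ceruloplasmin, was different: its strongest peak, 360.5, lay 49584 bases into the gene, next to one of 115.6, while the peak at its start had 13.6. Cxadr (303.8), a cell adhesion receptor gene, Deptor (254.1), an inhibitor of mTOR, and Cyp3a13 (243.8) were also among the 10 highest. The listed enrichment was an exact whole number for 324 peaks (2.64%), as for Susd6. The sources used here do not say how the authors treated input values near 0, on which such high ratios turn.

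Position divided the peaks further. Of the 12204 peaks that overlapped the RefSeq span of their gene, 20.9% had the middle of their outer interval in part 1 of 10 equal parts of the genomic span and 31.8% in part 10, against 3.50% in part 6. Median enrichment was 19.8 in part 1, 9.004 in part 8 and 11.1 in part 10. In 1408 peaks (11.5%) the end lay within 500 bases of the annotated end of the gene. Positions are along the gene with its introns, since no transcript models of the peaks were used.

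**Figure D3:**
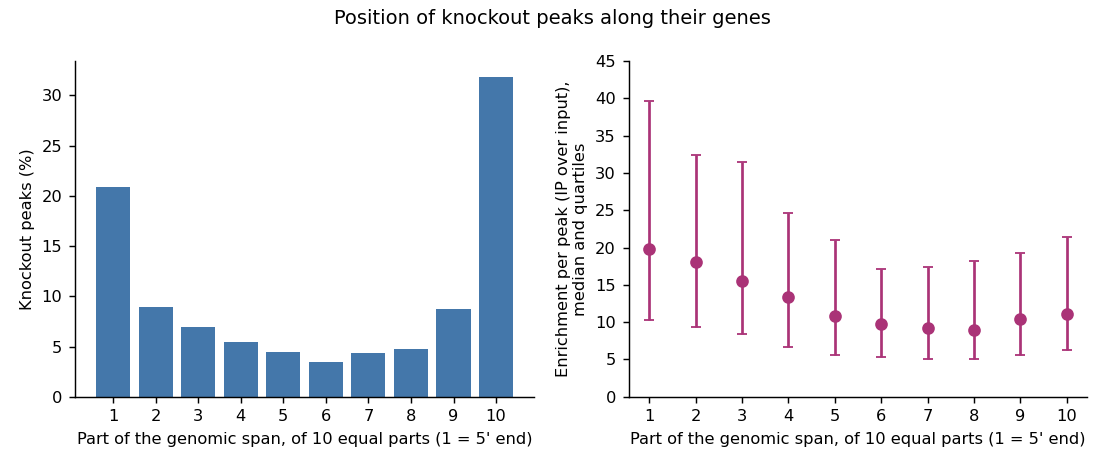
Left, share of knockout peaks (%) in each of 10 equal parts of the genomic span of their gene, counted from the 5' end, with 20.9% in part 1 and 31.8% in part 10. Right, enrichment (IP over input) of the same peaks, with points for medians and bars for quartiles. The highest median, 19.8, was in part 1.

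Peaks at gene starts had the higher median enrichment in the more abundant classes. A listed start was at hand for 9817 peaks in 4721 genes, and 2989 of these peaks (30.5%) began from 50 bases before to 200 after one (start peaks below), in 2855 genes (60.5%). In the wild-type list the same shares were 28.1% of 4517 peaks and 49.03% of 2417 genes. The median enrichment was 19.3 (quartiles 10.03 and 37.7) for start peaks and 10.99 (6.02 and 20.9) for the others. An enrichment of at least 50 was reached by 17% and 6.59%, and several blocks were found in 61.6% and 15.4%. In 1560 genes with both kinds the start peak was the stronger in 1129 (72.4%), by a median ratio of 1.82 over all 1560. Another 1295 genes had start peaks alone and 1866 had other peaks alone. Median mean counts were 563 for genes with start peaks alone, 490 for genes with other peaks alone and 1077 for genes with both. In abundance class 5 the medians were 18.1 for start peaks and 7.86 for others, and in class 4 they were 20.3 and 14.3. In class 3 they were 21.7 and 22.7 and in class 2 25.4 and 30.0, so the order was turned there. The share of start peaks itself was 31.6%, 31.4%, 28.7% and 31.3% from class 2 to class 5.

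Alb, which encodes serum albumin, had a mean count of 349244 and 5 peaks: 49.9 at 20 bases after the start, and 1.10, 1.27, 1.31 and 2.17 further on. Cyp3a11, a drug-metabolising cytochrome P450, had 131.2 at its start and 1.66, 2.47 and 2.84 elsewhere. Itih4, an acute phase protein gene, had 48.8 at its start and 1.75 to 4.21 in its 6 other peaks. In each of these genes 1 peak at the start was more than 10 times any other. In Plg, the plasminogen gene, for which no start was listed in the sequence table, the first peak along the gene had 159.2 and its 4 others 1.67 to 4.77. Cps1, the first enzyme of the urea cycle (mean count 71361), had 8 peaks between 1.92 and 8.79, and the highest was its last.

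Families of genes were then compared through 47 lists with 2537 measured members in all, of which 1243 carried a knockout peak. For each list the share of members with a peak is set beside the share over all genes of the same abundance classes as its members. By that measure 24 lists lay above and 23 below, most by little, and no list is called apart from other genes here. With only peaks at or above the median enrichment (stricter peaks below) 17 lists changed side. Over all peaks the median enrichment was 13.1 and over all genes with a listed start 30.5% of peaks were start peaks.

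**Figure D4:**
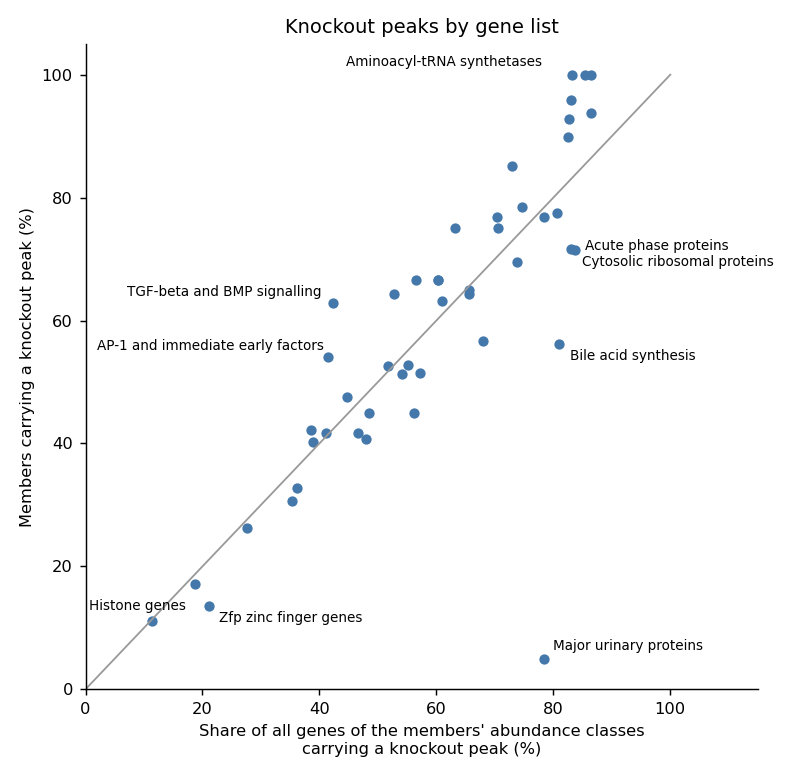
Share of measured members carrying a knockout peak (%) in each of 47 gene lists, against the share over all genes of the same abundance classes (%). Each point is a list, the grey line marks equal shares, and the lists named in the plot include those farthest from it. Major urinary proteins lie lowest beside their abundance, at 5% against 78.4%.

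Most UPR genes carried peaks. Of 33 members of the PERK arm with ATF4 and CHOP targets 22 carried a peak (66.7%, beside 56.6%), of 28 IRE1 and XBP1 targets 26 (92.9%, beside 82.7%), of 24 ATF6 targets and ER chaperones 23 (95.8%, beside 83.1%) and of 26 genes of ER-associated degradation 20 (76.9%, beside 78.4%). With the stricter peaks the shares were 42.4% (beside 38.9%), 67.9% (beside 54.2%), 54.2% (beside 54.7%) and 57.7% (beside 52.8%), so the ATF6 and ER-associated degradation lists changed side. Median enrichments were 7.44, 8.42, 5.67 and 11.2. Ddit3, which encodes CHOP, the pro-apoptotic factor of the PERK arm, had 2 peaks. The first (chr10:127290842-127295368, 3 blocks, 147 bases) began 49 bases after the start and had 9.89, and the second, 49 bases long near the 3' end, had 2.43. For Ddit3 the authors' deposited table gave a log2 change of 1.24 ± 0.66 (SE, adjusted p = 0.117, DESeq2), which did not pass. Atf4, the factor upstream of CHOP, had 3 peaks of 14.6, 2.70 and 3.82, the first of them beginning 347 bases after the start. Trib3, Atf3 and Ppp1r15a, which are targets of that arm, had 3, 4 and 3 peaks with none above 5.83. Asns (asparagine synthetase, 87.5), Cth (cystathionase, 67.9) and Slc3a2 (an amino acid transporter chain, 56.9) had the highest values of the list, and Ero1l and Psph had none. Eif2ak3, which encodes PERK itself, had 5 peaks of 4.95 to 24.2, all at least 47916 bases from its listed start. Xbp1, the mRNA spliced by IRE1, had 4 of 4.03 to 14.2. Serp1 (114.1) and the signal peptidase genes Spcs3 (97.6) and Spcs2 (81.0) led the IRE1 and XBP1 targets. Hspa5, the chaperone BiP, among the most abundant genes here (mean count 182431), had 6 peaks, 7.27 at the start, 5.83 in a long peak toward the 3' end and 1.46 to 2.40 in the others. Atf6 had 84.4 in its strongest peak and calnexin (Canx) 71.5 at its start. Herpud1, of ER-associated degradation, had 13.6 at its start and 1.81 to 4.85 in its 3 others.

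Genes of m6A itself carried peaks too. Of 12 writers 5 did (41.7%, beside 41.2%): Pcif1 with 2 (12.2 at 99 bases after its start and 33.6 near its 3' end), Virma, listed as 1110037F02Rik (30.0), Mettl5 (16.3), Rbm15b (12.7) and Mettl3 with 1 of 9.76 at 99 bases after its start. The writers' share with the stricter peaks was 25% (beside 31.1%), on the other side. Wtap, Zc3h13, Rbm15, Cbll1, Mettl16, Zcchc4 and Mettl14 had none, at mean counts of 76.5 to 486. Of 15 erasers and readers 10 carried a peak (66.7%, beside 60.2%), with 3.50 peaks per peak gene. Ythdf3, a cytoplasmic reader, had 5 peaks of 7.33 to 74.7, and the demethylase Alkbh5 had 5 of 7.39 to 27.8, the 3 strongest in a row from 300 bases after its start. The demethylase Fto had 2 peaks, with 43.9 in the stronger.

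The lists of oxidative phosphorylation, the proteasome and mitochondrial ribosomal proteins had the largest shares of start peaks among the 40 lists with at least 20 peaks that have a listed start. Of 80 subunits of oxidative phosphorylation 62 carried a peak (77.5%, beside 80.7%), and with the stricter peaks 25% did (beside 53.3%). Their median enrichment was 6.04. Of their 69 peaks with a listed start 48 (69.6%) were start peaks, the highest share of those lists, with 1.36 peaks per peak gene. Atp5g3 (63.1), Ndufs1 (44.3) and Uqcrc2 (41.97), subunits of ATP synthase, complex I and complex III, had the highest values. The beta subunit of ATP synthase, Atp5b, had 26.7 at its start and 1.78, 2.17 and 4.86 elsewhere. Of 47 proteasome genes 40 carried a peak (85.1%, beside 72.9%), and 60% of those peaks with a listed start were start peaks. Psmd2 (264.3) and Psmd5 (248.3), an assembly chaperone, were highest. Mitochondrial ribosomal proteins (50 of 77, 64.9% beside 65.6%, and 15.6% beside 46.1% with the stricter peaks) had 58.6% start peaks and fatty acid oxidation and ketogenesis (30 of 32, 93.8% beside 86.4%) had 55.0%. In the latter list Acadvl, the very long chain acyl-CoA dehydrogenase, had 1 peak of 122.1 beginning 50 bases after its start. Cytosolic ribosomal proteins had the lowest median enrichment of the 47 lists, 3.98, and 58 of 81 carried a peak (71.6%, beside 83.0%, and 8.64% beside 54.7% with the stricter peaks). Of their peaks with a listed start 33.9% were start peaks. Their highest values were those of Rpl15 (84.7), Rpl7l1 (57.5) and Rps12 (52.7). Many ribosomal protein genes have processed pseudogenes that can take up reads, so their peaks are uncertain.

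The lists with the smallest shares of start peaks were those of chromatin modifiers, TGF-beta and BMP signalling and hepatocyte transcription factors. Of 84 chromatin modifiers and remodellers 53 carried a peak (63.1%, beside 61.0%), with 3.85 peaks per peak gene and 5.43% start peaks (7 of 129), the lowest share of the 40 lists. Beside Nsd1 and Kmt2d, the acetyltransferase gene Kat7 (122.6), the demethylase gene Kdm5b (89.3) and Suz12 (87.8), of the Polycomb complex PRC2, had high values, while Smarca4, a remodelling ATPase, had no peak at a mean count of 1124. In TGF-beta and BMP signalling 22 of 35 genes carried a peak (62.9%, beside 42.3%). Of their peaks with a listed start 10% (4 of 40) were start peaks. The receptor gene Acvr1b had 218.7 and 39 in neighbouring peaks 36843 and 37091 bases after its listed start, at a mean count of 168. The repressor Skil (114) and the co-receptor Tgfbr3 (103.3) came next, and the receptor Bmpr2 had none. Hepatocyte transcription factors (14 of 21, 66.7% beside 60.3%) had 11.5% start peaks (3 of 26) and 3.29 peaks per peak gene. Among them Foxo1, which drives gluconeogenic genes in fasting, had 7 peaks of 8.79 to 28.2, all at least 76906 bases from its listed start, and Foxa3 and Prox1 had none. AP-1 and immediate early factors carried peaks in 20 of 37 genes (54.1%, beside 41.5%), with 23.8% start peaks. With the stricter peaks the share was 24.3% (beside 29.2%), so the order turned. Among them were Jun with 3 (4.26, 12.2 and 6.16) and Klf9 with 5 (4.96 to 11.2). Genes named Zfp carried them in 47 of 345 (13.6%, beside 21.1%), with 15.4% start peaks.

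**Figure D5:**
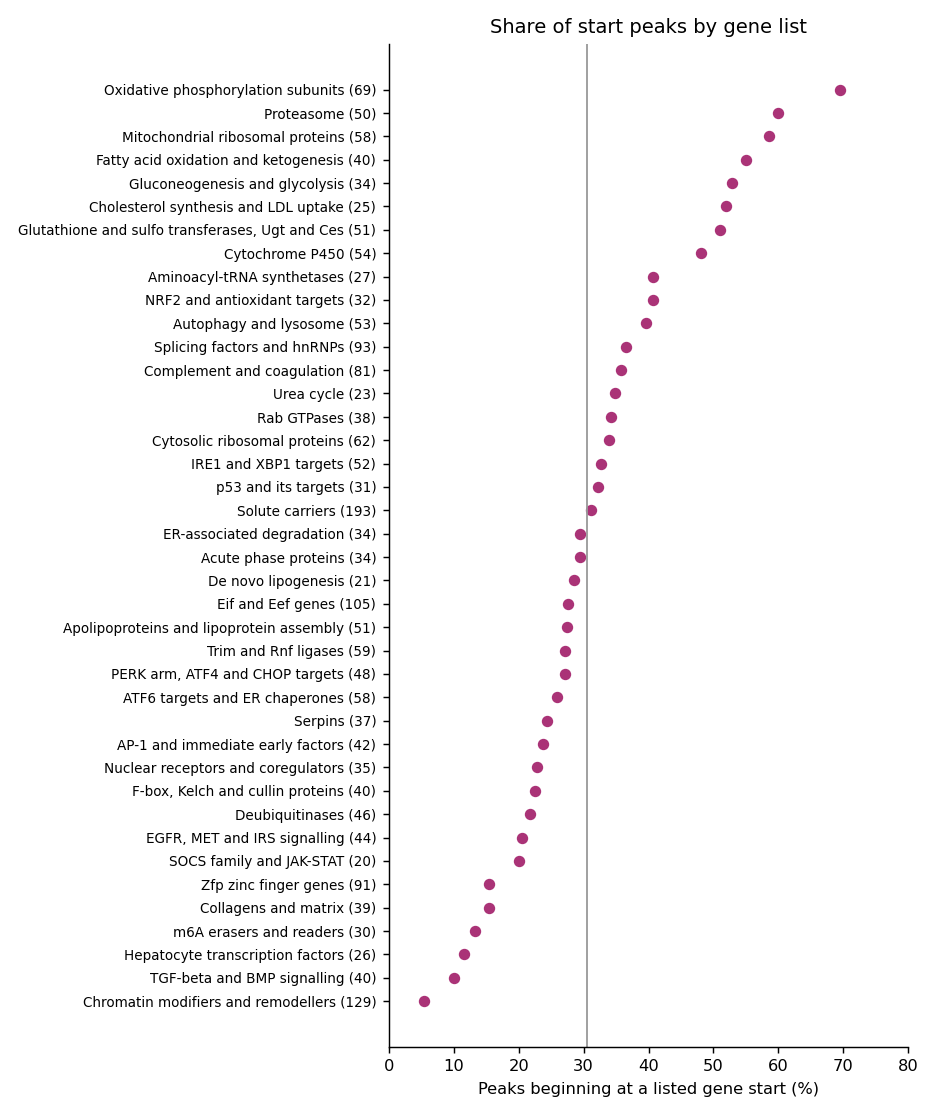
Share (%) of knockout peaks beginning from 50 bases before to 200 after a listed gene start, for the 40 lists with at least 20 peaks that had a listed start. Each dot is a list, the number in parentheses counts its peaks with a listed start, and the grey line marks 30.5%, the share over all such peaks. The lists run from chromatin modifiers at 5.43% to oxidative phosphorylation at 69.6%.

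Every measured member carried a peak in 3 lists: the urea cycle and its transporters (13 of 13, beside 86.4%), apolipoproteins and lipoprotein assembly (20 of 20, beside 85.4%) and aminoacyl-tRNA synthetases (20 of 20, beside 83.2%). With the stricter peaks these shares were 69.2% (beside 56.5%), 35% (beside 56.0%) and 95% (beside 55.2%), so the order turned for the apolipoproteins. Complement and coagulation genes carried peaks in 44 of 49 (89.8%, beside 82.5%), with Plg (159.2), F11 (102.9), C4b (93.0) and F9 (77.7) highest. Acute phase proteins carried them in 15 of 21 (71.4%, beside 83.6%, and 38.1% beside 54.8% with the stricter peaks). Bile acid synthesis had 9 of 16 (56.3%, beside 81.1%), with Cyp8b1 and Cyp7b1 among those without. Cytochrome P450 genes had 35 of 86 (40.7%, beside 47.9%), with 48.1% start peaks. The major urinary protein genes had 1 of 20 (5%, beside 78.4%), Mup20, with 3 peaks of 3.31 to 13.8. Solute carriers had 123 of 306 (40.2%, beside 38.9%), led by the zinc and manganese transporter Slc39a8 (534.9, at a mean count of 271.8) and the urate transporter Slc2a9 (250). Fasn, fatty acid synthase, had 1 peak of 112.7 at 499 bases after its start. Of the p53 list 18 of 28 carried a peak (64.3%, beside 52.7%, and 42.9% beside 36.9% with the stricter peaks), and Trp53 itself (75.8) and Cdkn1a, the cell cycle inhibitor p21 (54.6), each had a single one at the start.

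Genes with a knockout peak were also followed through the comparison of the input libraries. By the authors' deposited table (adjusted p under 0.05, DESeq2) 1221 of the 5861 peak genes were higher in knockout (20.8%, beside 20.4% of all 14257 genes tested) and 1997 were lower (34.1%, beside 22.2%). Of the 8396 tested genes without a peak 13.9% were lower. Abundance moved with these shares. Within class 5, 50.6% of 2789 peak genes and 56.2% of 438 genes without a peak were lower, and 14.7% and 9.36% were higher. Within class 4, 22.9% of peak genes and 31.3% of genes without a peak were lower, and 25.4% and 18.8% were higher. Within both classes the peak genes thus held the smaller share of lower genes, opposite to the pooled counts. Since peaks are called over the knockout input, level and peak are not independent readings of a gene. Among the genes named above, the authors' deposited table gave log2 changes of -2.39 for Cyp3a13 (SE 0.22, adjusted p = 1.39e-26), 2.09 for Cxadr (SE 0.20, adjusted p = 1.09e-24) and -2.37 for Herpud1 (SE 0.19, adjusted p = 2.69e-35). The same authors' deposited table gave 1.36 for Hspa5 (SE 0.20, adjusted p = 3.35e-10), -0.74 for Xbp1 (SE 0.19, adjusted p = 5.86e-04) and 0.10 for Txnrd1 (SE 0.19, adjusted p = 0.710), the last of which did not pass. These directions are those at the authors' size factors.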

How the data were processed

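RNA of tunicamycin-treated liver was sequenced as input and as m6A IP, 2 libraries per genotype and type. Per the submitters' processing notes, HISAT2 2.1.0, DESeq2 1.18.1 and mm10 were used. No label or file header names the peak caller, the read counter or the annotation. In this series the authors deposited 1 peak list per genotype, not per library: the enrichment is read as a ratio of IP over input, a value between 0 and 1 as a p-value, and the deposited block number is a count. Their expression table gives, per the file headers, a mean signal (normalized counts over 4 input libraries), a log2 fold change with its standard error, a Wald score, and p-values with adjusted p-values. Depth per library is not in these files and stays unknown here. Deposited peak starts count from 0 and were written from 1. Every row was kept. Genes were divided into 5 equal classes by mean count. Of 5861 peak genes 5844 matched RefSeq symbols. Shares, medians and positions were computed with Python 3.11.15, numpy 2.4.6, pandas 2.3.3, scipy 1.17.1 and matplotlib 3.10.9 and checked on small made-up inputs. Genes named are Ddit3, the m6A writers, the 10 with the highest enrichment and the 10 with most peaks at or above the median mean count of peak genes, without predicted genes, and per list up to 4 with the highest enrichment and up to 2 abundant ones without a peak. A gene chosen by this rule is not reported here. Other genes named, the start windows and the printed starts were chosen after values were seen. Members, lists and tests were chosen with earlier results of these data known.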

Additional observations from a re-analysis of the deposited data

How the results depend on the processing

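With only peaks at or above the median enrichment, 6145 peaks stayed, the share with several blocks was 33.5% (29.2% with all) and the share of start peaks 40.4% (30.5%). The highest abundance class had a peak in 95.03% of genes with fixed limits of mean count, 87.6% by the estimated level in knockout input and 88.8% with a minimum mean count of 10, beside 86.4%. The middle class had 53.5% with fixed limits and 48.5% with that minimum, beside 27.9%, since those classes hold other genes. With the strongest peak of each gene alone, median enrichment was 19.0 in the highest class (9.82) and 25.97 in the middle (22.2). At a change of at least 2-fold 695 peak genes were higher (11.9%, beside 14.9% of all tested) and 1001 lower (17.1%, beside 12.6%). The pooled share of higher peak genes thus fell below that of all genes, unlike without the fold limit. Within class 5, 7.10% of peak genes and 5.02% of genes without a peak were higher at that limit, and within class 4, 13.6% and 9.89%. Chosen after seeing the data, start windows of 100 and 400 bases gave 24.1% and 34.3% start peaks, and peaks of 1 block gave 16.6%. The ratio of median enrichment at starts to elsewhere was turned in abundance class 3, at 0.957, and the cause was not tested. Of 47 gene lists, 17 changed side of their abundance class with the stricter peaks and 3 with a mean count of at least 100. With blocks ended at the listed end, 3346 knockout peaks overlapped a wild-type peak (3361 as listed). Merging overlapping rows left all 12290 peaks. Leaving out a library and the search for the DRACH motif inside peaks were not run, since the list holds 1 value per peak and no genome was used here. No paired analysis was possible because the list carries no value per library.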

Other observations

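Long noncoding RNAs carried few of the knockout peaks. Of 721 genes that RefSeq names lncRNA 19 had a peak (2.64%), and of the 72 at a mean count of 100 or more, 16 did (22.2%, beside 62.2% of all genes at that level). The median mean count was 6.08 for the 721 and 154.7 for all genes. A lower limit on mean count does not match abundance, and these shares were not set beside genes of the same abundance classes. Malat1, a nuclear RNA known to be methylated, had 8 peaks at a mean count of 22895: 101.0 from the first base after its start, 13.5 over 1097 bases next to it, and 1.71 to 4.63 in the other 6. Neat1, the scaffold of paraspeckles, had 2 peaks with 94.9 in the stronger, and Firre, a nuclear RNA from the X chromosome, had 1 of 28.3. Some entries of this class, such as Dpm1-adnp with 9 peaks, are readthrough transcripts whose peaks may be those of the genes they span.

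Peaks were also found in some marker genes of liver cells other than hepatocytes, and not in others. Kdr, the endothelial receptor for vascular endothelial growth factor, had 4 peaks with 285.2 in the strongest at a mean count of 199.4, and Lrat, which stores retinol in stellate cells, had 4 with 82.8. Among macrophage markers Clec4f had 2 (strongest 29.1) and Csf1r 4 (20.3). Of the cholangiocyte markers Sox9 had 1 (56.3) and Spp1 3 (strongest 25.3), and Krt19, Krt7, Epcam and Cldn4 had none. Stab2 (574.5) and Col1a1 (641.5), an endothelial and a stellate marker, had none. Nor did the stellate markers Acta2 and Des, the macrophage marker Adgre1 or any of the lymphocyte markers. The cholangiocyte, stellate and macrophage markers without a peak, apart from Col1a1, had mean counts of 84.9 to 144.3. The part of such cells in the list was not tested.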
